A study of Rattus norvegicus with 6 samples.

Results

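Nuclear receptors are transcription factors, most of which are switched by a small lipid-soluble ligand such as a fatty acid, an oxysterol, a bile acid, a steroid or a thyroid hormone. Many bind DNA as a pair with a retinoid X receptor, others bind as homodimers or as monomers, and they recruit coactivators or corepressors to their target genes. In liver they set the genes of fat oxidation, sterol and bile acid handling, drug metabolism and glucose supply. Described here are 40 rat genes of this family, chosen by symbol; the Rev-erb receptors, which belong to the circadian clock, had been left aside. Of the 40, 34 were found by symbol among the named genes of the array, out of 9627 named genes and 26419 probes in all. Nr5a1, Hnf4g, Rarb, Rarg, Nr6a1 and Rora were not found under those symbols and are not analysed here. Rora is itself known as an activator of the clock gene Bmal1, so the list does not part the clock from other functions in a strict sense.

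The samples were livers of male Sprague Dawley rats, all on a high-fat diet of 60% and all taken at 9 weeks. The tea group (3 arrays) had received, by stomach tube, dark tea that strain 8730 of the fungus Eurotium cristatum had fermented, and the control group (3 arrays) had received distilled water the same way. No group on a normal diet is analysed here, so both groups share the high-fat diet. The comparison asked how the liver's expression profile on that diet differed with the tea. Whether each replicate is a different rat is not stated in the labels; the p-values therefore weigh differences against the scatter of these arrays only, part of which may be technical. A bulk liver sample mixes hepatocytes with other cells, and fewer cells of a type and less RNA per cell cannot be told apart.

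Values are log2 intensities of 1-colour arrays, normalised by the authors. Median probe intensity was 87.1 to 95.9 over the 6 arrays, and a random control probe, which stands for background, read 5.05 to 5.40 on the log2 scale. The 5.40 was that of control replicate 1, against 5.05 to 5.15 in the other arrays. With 3 arrays a group, precision is limited throughout by that number. All 10 hepatocyte markers lay above the random control probe in every array, and albumin (Alb) read 15.41 to 15.76. Control replicate 1 was unlike the rest, with Pearson correlations over all probes of 0.884 to 0.899 to the other 5, against 0.945 to 0.972 among those 5. Among the receptors, values without that array are given beside the differences that it moved most, and among other genes only for some. In the fit over all probes, 1 probe passed the correction (limma, Benjamini-Hochberg), that of the clock output gene Dbp with an adjusted p of 0.0142.

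The brightness of a probe depends on its sequence as well as on its transcript, so the order below is one of probe intensity and not of transcript amount. Of the 34 receptors, 23 had a mean log2 intensity above 6.47, the median of the means of all probes, as did 50.6% of named genes. The brightest probe was that of Nr5a2, a regulator of bile acid and cholesterol genes also called LRH-1. It read 11.23, 11.19 and 11.20 in the tea arrays and 11.21, 11.36 and 11.19 in the control arrays, the smallest spread over the 6 arrays among the 34. Next came Nr1h4 (the bile acid receptor FXR), Nr1i2 (the xenobiotic receptor PXR), Nr3c1 (the glucocorticoid receptor), Rxra (the common partner receptor RXR-alpha) and Nr2f2 (COUP-TF2, an orphan receptor). Nr1i3, Ppara, Nr2c2 and Hnf4a followed, with means of 9.49, 9.46, 9.11 and 8.88.

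**Figure D1:**
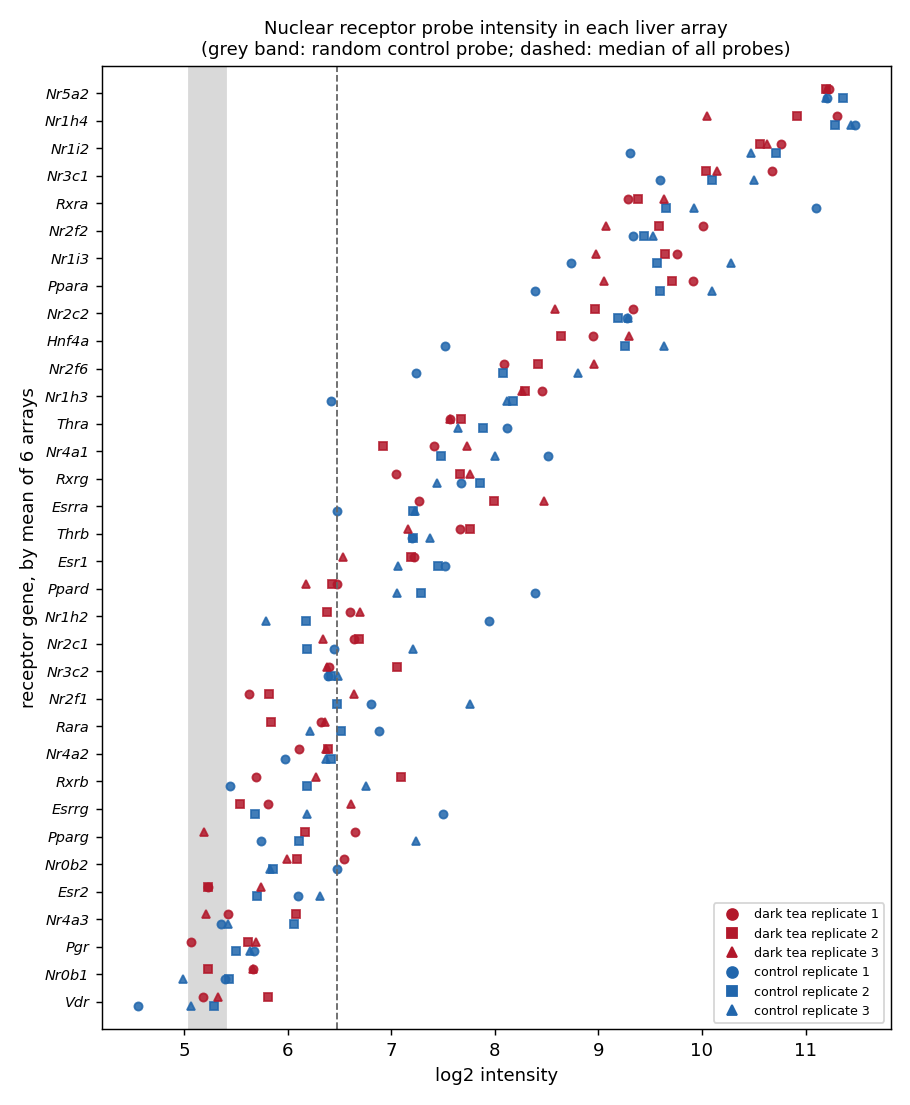
Log2 intensity (horizontal axis) of the 34 receptor genes in each of the 6 liver arrays, ordered by mean, with dark tea arrays in red and control arrays in blue and a marker shape for each replicate number. The grey band spans the random control probe over the arrays and the dashed line is the median of all probe means; the probes ran from Nr5a2 with a mean of 11.23 to Vdr with a mean of 5.21.

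At the dim end were Vdr, the vitamin D receptor, with a mean of 5.21, Nr0b1 with 5.40, Pgr, the progesterone receptor, with 5.53, and Nr4a3 with 5.59. Vdr, Nr0b1 and Nr4a3 read below the random control probe in at least 1 array, so differences between groups in these carry little. For Vdr and Nr4a3 it was control replicate 1 alone, the array in which that probe was brightest. Nr0b2 (SHP), a repressor induced by FXR that lacks a DNA-binding domain, lay at percentile 42.7 of all probe means. Pparg lay at percentile 44.0. Neighbours in this order are close: of the 33 steps from one receptor to the next, 1 was larger than the SD over the 6 arrays of the more variable of the pair.

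No receptor passed the correction over all probes. The adjusted p (limma) of the 34 ranged from 0.949 to 0.993, and 0 were called, against 0.00379% of all probes. At an unadjusted p under 0.05 there were 3 receptors of 34, Ppard, Esrra and Nr2f1, where 4.23% of all probes reached that level. Mean levels were higher with tea for 15 receptors and lower for 19 (49.7% of all probes and 48.5% of named genes were higher), with a median log2 fold change of -0.05, beside -0.014 over all named genes. The median size of the difference, whatever its sign, was 0.27 for the receptors and also 0.27 for the named genes. Without control replicate 1 the counts were 12 higher and 22 lower with a median of -0.13, and 2 receptors, Ppard and Nr2f1, were at an unadjusted p under 0.05, beside 5.63% of all probes; 0 passed the adjusted threshold, beside 0.0227% of all probes.

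The 3 tea arrays and the 3 control arrays did not overlap for 4 receptors, beside 10.4% of all probes. Esrra and Nr1h3 lay higher with tea (4.87% of all probes did so without overlap) and Ppard and Rxra lay lower (5.54% of all probes). Taken singly, each of the 4 had p = 0.1 in an exact permutation test (two-sided), a floor set by there being 10 distinct ways to divide 6 arrays. Groups that do not overlap always reach this floor, so the test adds nothing to their lack of overlap. The count of receptors without overlap is thus close to the background of the array. The 3 of 34 at an unadjusted p under 0.05 are a larger share than the 4.23% of all probes, but a small count. The values below describe the members without a call.

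**Figure D2:**
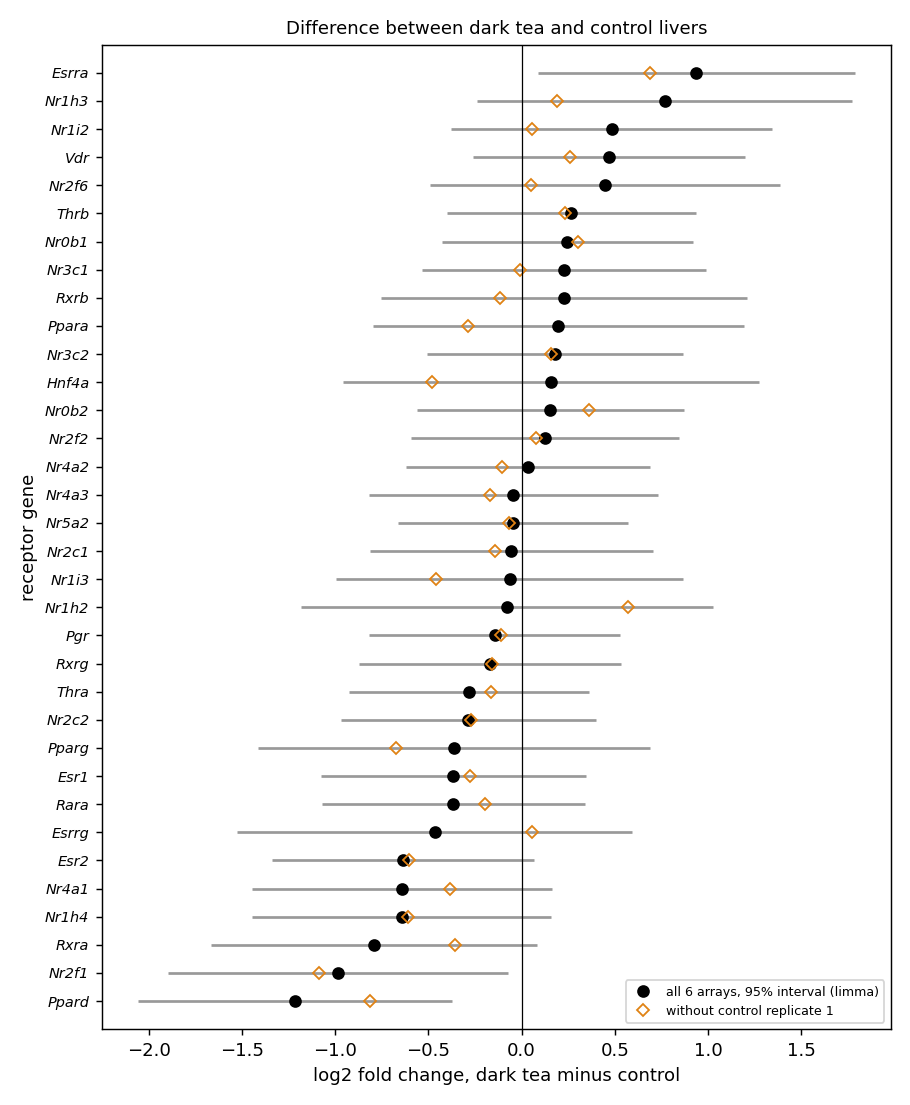
Log2 fold change, dark tea minus control (horizontal axis), of the 34 receptors with limma's 95% intervals over all 6 arrays (black) and the value without control replicate 1 (orange diamonds). The intervals of Esrra, Nr2f1 and Ppard leave out 0; the diamonds of Nr1h3, Rxra, Nr1h2 and Hnf4a lie far from their black points.

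Among the fatty acid receptors, Ppard had the largest difference of the 34. PPAR-delta is a widely expressed receptor of fatty acids, known for oxidative genes in muscle. Ppard read 6.48, 6.43 and 6.18 in the tea arrays, against 8.39, 7.29 and 7.06 in the control arrays. Every tea value lay below every control value, and control replicate 1 was the highest. The level was 2.32-fold lower with tea, with a log2 fold change of -1.22 ± 0.38 (SE, 95% interval -2.06 to -0.38; limma, unadjusted p = 0.00898, adjusted p = 0.949). It was -0.81 without control replicate 1 and between -0.81 and -1.48 over the omission of each array in turn. The unadjusted p stayed under 0.05 in each of these 6 omissions.

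Ppara, the fasting-activated receptor that drives fatty acid oxidation in hepatocytes, read 9.91, 9.71 and 9.06 in the tea arrays, against 8.39, 9.59 and 10.10 in the control arrays. The groups overlapped, with both the lowest and the highest value among the controls. The log2 fold change of Ppara turned from 0.20 with all arrays to -0.29 without control replicate 1. Pparg, the receptor of fat storage, read 6.65, 6.17 and 5.19 with tea and 5.74, 6.11 and 7.24 with water. Its groups overlapped as well, and the difference was -0.36 ± 0.47 (SE), or -0.67 without control replicate 1.

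The sterol receptors LXR-alpha (Nr1h3) and LXR-beta (Nr1h2) sense oxysterols and control cholesterol efflux and lipogenic genes. Nr1h3 read 8.46, 8.29 and 8.26 in the tea arrays, against 6.42, 8.17 and 8.11 in the control arrays. The groups did not overlap, but control replicates 2 and 3 lay just under the tea arrays. The log2 fold change of 0.77 ± 0.45 (SE; limma, adjusted p = 0.949) was 0.19 without control replicate 1. Nr1h2 read 6.60, 6.38 and 6.70 with tea, against 7.95, 6.18 and 5.79 with water. Here control replicate 1 was the highest array and the other 2 controls were the lowest, so the difference of -0.08 with all arrays turned to 0.57 without it. Nr1h4, the bile acid receptor FXR, read 11.31, 10.91 and 10.05 with tea, against 11.47, 11.29 and 11.44 with water. Tea replicate 1 lay within the control range and tea replicate 3 was the lowest array. The difference was -0.64 ± 0.36 (SE; limma, unadjusted p = 0.104), and -0.29 without tea replicate 3.

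The xenobiotic receptors PXR (Nr1i2) and CAR (Nr1i3) switch on cytochromes P450 and transporters of drug metabolism. Nr1i2 read 10.76, 10.56 and 10.62 in the tea arrays, against 9.30, 10.72 and 10.47 in the control arrays, so that all but control replicate 1 were alike. Its difference of 0.48 ± 0.39 (SE) was 0.05 without that array. Nr1i3 read 9.76, 9.64 and 8.98 with tea and 8.73, 9.56 and 10.28 with water, with wide overlap and a difference of -0.06 ± 0.42 (SE), or -0.46 without control replicate 1. Nr0b2, which represses bile acid synthesis genes, read 6.55, 6.09 and 5.99 with tea and 6.47, 5.86 and 5.83 with water. The replicates of Nr0b2 differed by more than the groups, whose means were 0.15 apart (0.36 without control replicate 1).

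Hnf4a, a master regulator of hepatocyte identity, read 8.95, 8.64 and 9.30 in the tea arrays, against 7.52, 9.26 and 9.64 in the control arrays. Control replicate 1 was the lowest array by more than 1 on the log2 scale. The difference turned from 0.16 with all arrays to -0.48 without it (limma, unadjusted p = 0.163), while the tea arrays alone ran from 8.64 to 9.30. Rxra read 9.29, 9.39 and 9.63 with tea, against 11.10, 9.66 and 9.93 with water. The groups did not overlap, control replicate 1 was the highest, and control replicate 2 lay just above tea replicate 3. The log2 fold change of -0.79 ± 0.40 (SE; limma, unadjusted p = 0.0715) was -0.36 without control replicate 1. Rxrb and Rxrg, the other retinoid X receptors, differed by 0.23 ± 0.44 and -0.17 ± 0.32 (SE), and Rxrb by -0.12 without control replicate 1. Rara, a retinoic acid receptor, differed by -0.37 ± 0.32, and by -0.19 without that array.

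The thyroid hormone receptor Thra was the 1 member with several probes, and its 2 probes disagreed. The brighter probe, which stands for the gene here, differed by -0.28 ± 0.29 (-0.16 without control replicate 1) and the other by 0.53 ± 0.38 (SE), with no overlap-free groups in either. Thrb, the main thyroid hormone receptor of hepatocytes, differed by 0.27 ± 0.30, and Vdr by 0.47 ± 0.33 at background intensity (0.26 without control replicate 1). Of the steroid receptors, Nr3c1 read 10.68, 10.04 and 10.15 with tea, against 9.59, 10.09 and 10.50 with water. The Nr3c1 groups overlapped, and the difference was 0.23 with all arrays and -0.0098 without control replicate 1. The oestrogen receptor gene Esr2 differed by -0.64 ± 0.32 at intensities of 5.23 to 5.75 in the tea arrays and 5.70 to 6.31 in the control arrays, with 1 tea value inside the control range. Esr1, the oestrogen receptor of hepatocytes, differed by -0.37 ± 0.32, Nr3c2, the mineralocorticoid receptor, by 0.18 ± 0.31, and Pgr by -0.14 ± 0.30.

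The NR4A receptors are immediate early genes that respond to stress, fasting hormones and tissue handling. Nr4a1 read 6.92 to 7.74 in the tea arrays, against 7.48 to 8.52 in the control arrays, a difference of -0.64 ± 0.36 (SE) with overlap, and of -0.39 without control replicate 1. Nr4a2 and Nr4a3 differed by 0.04 and -0.04.

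Of the COUP-TF receptors, orphan factors that often act as repressors and are known in liver for roles in endothelium and stromal cells as well as in hepatocytes, Nr2f1 differed most. It read 5.63, 5.82 and 6.64 in the tea arrays, against 6.80, 6.48 and 7.76 in the control arrays. Tea replicate 3 lay above control replicate 2, so the groups overlapped, and control replicate 3 was the highest. The log2 fold change was -0.99 ± 0.41 (SE, 95% interval -1.90 to -0.07; limma, unadjusted p = 0.0372, adjusted p = 0.949), -1.09 without control replicate 1 and -0.61 without control replicate 3. Nr2f2 read 10.01, 9.59 and 9.08 with tea and 9.34, 9.44 and 9.53 with water, with the controls inside the tea range. Of 11 endothelial markers 4 were measured, with summed intensities of 1216 to 1429 in the tea arrays and 1135 to 1810 in the control arrays. Of 11 markers of stellate cells and myofibroblasts 10 were measured, with sums of 4876 to 7391 with tea and 4321 to 6706 with water. Both sums overlapped between the groups, though 8 of the 10 stellate markers had higher means with tea, 1 of them without overlap. Of 12 lymphocyte markers 8 were measured, 6 higher and 2 lower with tea. Their sums did not overlap, at 1085 to 1754 with tea and 752 to 1045 with water. Sums of Kupffer cell, cholangiocyte, neutrophil and adipocyte markers overlapped. The part of these cell types in the receptor values was not tested. Nr2f6 differed by 0.45 ± 0.42 (0.048 without control replicate 1), and the testicular receptors Nr2c1 and Nr2c2 by -0.06 and -0.29.

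Esrra had the largest difference in the other direction. ERR-alpha is an orphan receptor that works with the coactivator encoded by Ppargc1a to raise mitochondrial and oxidative genes. Esrra read 7.27, 7.99 and 8.47 in the tea arrays, against 6.48, 7.21 and 7.23 in the control arrays. Tea replicate 1 lay just above control replicates 2 and 3, and tea replicate 3 was the highest array. The level was 1.92-fold higher with tea, with a log2 fold change of 0.94 ± 0.38 (SE, 95% interval 0.09 to 1.79; limma, unadjusted p = 0.0337, adjusted p = 0.949), and 0.69 without control replicate 1. The log2 fold change lay between 0.66 and 1.26 over the 6 omissions. Ppargc1a itself read 9.49, 8.14 and 8.67 with tea, against 8.39, 7.95 and 7.66 with water, a difference of 0.77 ± 0.39 (SE; limma, unadjusted p = 0.0778) with overlapping groups. Tea replicate 1 was the highest array for Ppargc1a and the lowest of the tea arrays for Esrra. A link between the 2 genes was not tested. Esrrg, a related receptor, differed by -0.47 ± 0.48, and by 0.054 without control replicate 1.

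**Figure D3:**
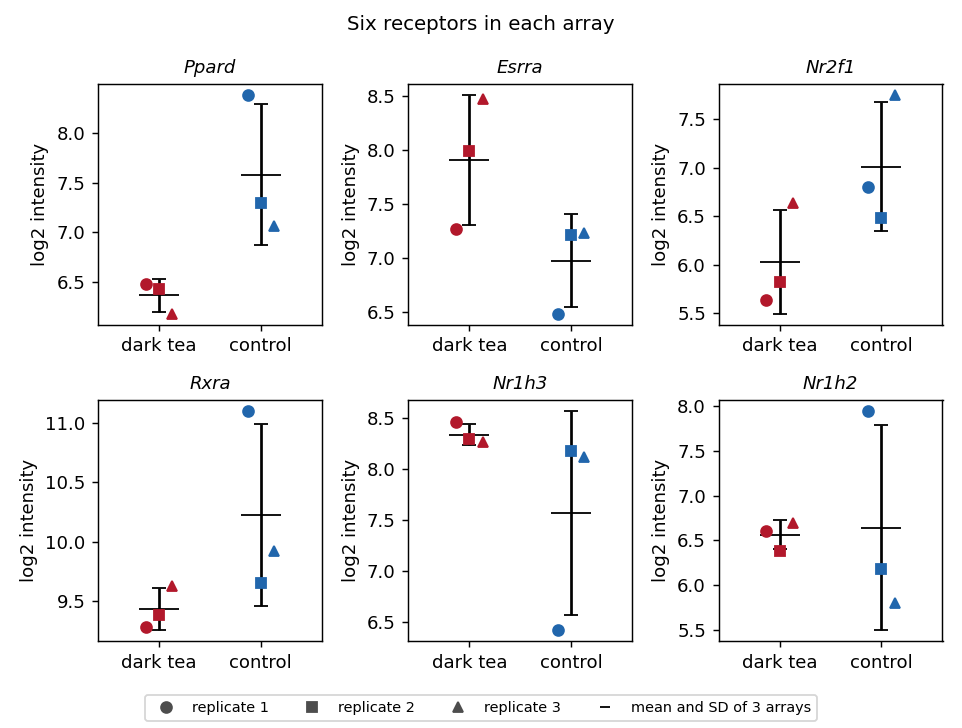
Log2 intensity (vertical axis, a separate scale for each gene that does not start at 0) of 6 receptors in dark tea arrays (left, red) and control arrays (right, blue), with the mean and SD of 3 arrays in black. For Ppard, Rxra and Nr1h2 control replicate 1 (circle) is the highest control, and for Esrra and Nr1h3 it is the lowest.

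Control replicate 1 was the lowest of the 6 arrays for 11 receptors (27.4% of all probes) and the highest for 9 (28.1% of all probes). Control replicate 1 differed from the mean of the other 2 controls by at least 1 on the log2 scale for 11 of the 34 receptors: 7 were lower in it, beside 13.9% of named genes, and 4 were higher, beside 9.87% of named genes. The 7 lower ones were Hnf4a (-1.92), Nr1h3 (-1.73), Ppara (-1.46), Nr1i2 (-1.29), Nr2f6 (-1.20), Nr1i3 (-1.19) and Rxrb (-1.03). The 4 higher ones were Nr1h2 (1.96), Esrrg (1.56), Rxra (1.31) and Ppard (1.21). So the 2 LXR genes, and likewise Ppara and Ppard, lay on opposite sides in this array. Summed intensity of the 10 hepatocyte markers was 238146 in control replicate 1, the lowest of the 6 arrays, against 245025 to 270866 in the tea arrays and 260054 and 292847 in the other controls; its part in the receptor values was not tested.

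**Figure D4:**
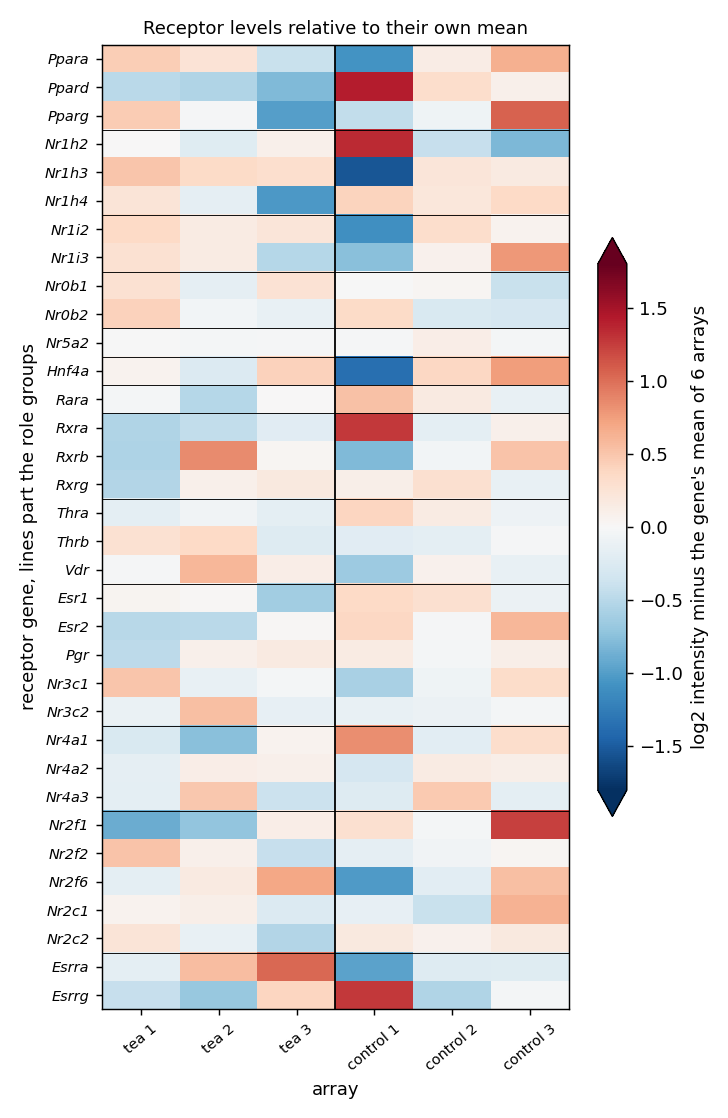
Log2 intensity of each receptor minus its own mean over the 6 arrays (colour), with dark tea arrays in the left columns and control arrays in the right ones, and receptors grouped by role. Control replicate 1 holds the strongest colours in both directions, from Nr1h3 and Hnf4a (low) to Ppard, Nr1h2, Esrrg and Rxra (high).

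Tea replicate 3 differed from the other 2 tea arrays by at least 1 on the log2 scale for 2 receptors, beside 7.29% of named genes. Both were lower, Pparg by -1.21 and Nr1h4 by -1.06.

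Promoter windows of 300 bases, from 250 before to 50 after the start of the gene as RefSeq annotates it on GRCr8, were found for 29 of the 34 receptors. Their median GC content was 60.7%, beside 52.3% over 27457 windows of all genes, and it ran from 45.0% to 84.7%. The ratio of observed to expected CpG dinucleotides had a median of 0.764 among receptors and 0.417 among all genes. It was under 0.4, a limit set after the values were seen, for 9 receptors (48.4% of all windows): Hnf4a, Nr0b2, Nr1h3, Nr1i2, Nr1i3, Nr2c2, Nr4a2, Nr5a2 and Pgr. Among the others, Rxra had a ratio of 1.15, Esrra of 0.900, Nr1h2 of 0.846 and Ppara of 0.802. In control replicate 1, 6 of the 9 CpG-poor receptors and 10 of the other 20 were lower than in the other controls. With tea, 5 of the 9 and 8 of the 20 had the higher mean, beside 48.5% of named genes. The CpG-poor receptors also had brighter probes, with a median log2 level of 8.88 against 6.88 for the others. A link between CpG content and these values was not tested. Each gene has 1 window here, and whether its start is the one used in liver was not tested either. The windows of 5 receptors are shown to let the contrast in CpG content be seen. They are Esrra and Rxra as CpG-rich cases, the 2 LXR genes as a pair that differs, and Hnf4a as a CpG-poor case. Capitals mark every CpG, of which there are 35 in Esrra (chr1:213543256-213543555, minus strand), 62 in Rxra (chr3:31387642-31387941, plus strand), 4 in Nr1h3 (chr3:97623180-97623479, minus strand), 15 in Nr1h2 (chr1:104183814-104184113, minus strand) and 6 in Hnf4a (chr3:172605970-172606269, plus strand), each printed 5′ to 3′ on the strand of its gene.
Esrra: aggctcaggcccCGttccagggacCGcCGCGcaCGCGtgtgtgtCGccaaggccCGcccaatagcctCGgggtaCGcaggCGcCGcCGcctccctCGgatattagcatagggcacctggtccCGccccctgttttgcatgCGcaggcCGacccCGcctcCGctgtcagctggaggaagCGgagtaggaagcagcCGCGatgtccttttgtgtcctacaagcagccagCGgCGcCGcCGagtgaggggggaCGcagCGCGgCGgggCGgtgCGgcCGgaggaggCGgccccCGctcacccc
Rxra: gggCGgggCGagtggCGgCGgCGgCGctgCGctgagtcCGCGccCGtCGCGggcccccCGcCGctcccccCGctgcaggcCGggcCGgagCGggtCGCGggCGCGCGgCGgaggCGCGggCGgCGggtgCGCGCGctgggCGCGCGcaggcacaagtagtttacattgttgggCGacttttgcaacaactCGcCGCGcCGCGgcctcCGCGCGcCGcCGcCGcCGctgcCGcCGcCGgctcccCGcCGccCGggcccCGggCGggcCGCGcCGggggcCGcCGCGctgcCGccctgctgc
Nr1h3: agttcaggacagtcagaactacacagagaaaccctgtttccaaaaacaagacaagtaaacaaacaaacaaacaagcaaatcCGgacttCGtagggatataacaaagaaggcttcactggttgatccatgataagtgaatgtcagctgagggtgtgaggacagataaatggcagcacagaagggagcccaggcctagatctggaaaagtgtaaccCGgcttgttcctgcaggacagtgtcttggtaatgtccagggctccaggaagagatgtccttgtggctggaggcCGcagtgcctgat
Nr1h2: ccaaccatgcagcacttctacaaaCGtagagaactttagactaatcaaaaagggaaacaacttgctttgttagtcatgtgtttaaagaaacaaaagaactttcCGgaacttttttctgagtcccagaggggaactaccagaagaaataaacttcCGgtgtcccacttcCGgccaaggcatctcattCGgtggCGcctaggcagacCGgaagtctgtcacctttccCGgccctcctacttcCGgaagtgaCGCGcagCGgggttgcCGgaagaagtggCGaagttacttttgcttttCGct
Hnf4a: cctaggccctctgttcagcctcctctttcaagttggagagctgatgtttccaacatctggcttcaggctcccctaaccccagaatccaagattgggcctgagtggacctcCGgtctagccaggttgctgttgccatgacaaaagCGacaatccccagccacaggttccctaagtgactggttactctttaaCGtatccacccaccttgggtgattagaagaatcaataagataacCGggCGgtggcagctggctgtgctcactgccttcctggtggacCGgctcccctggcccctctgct

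Motifs were searched on both strands of these windows. The half-site AGGTCA, to which many receptors of the family bind, occurred in 2 of 29 receptor windows, Nr0b1 and Nr5a2, beside 15.7% of all windows. Its longer form TCAAGGTCA, which contains it and is the type bound by ERR and LRH-1 monomers, occurred in 0 of 29, beside 0.412% of all windows. The E-box CACGTG of clock factors occurred in Esr2 and Nr0b2, beside 6.65% of all windows, and the pattern TTANNTAA, which covers sites bound by Dbp and its relatives, occurred in Pparg, beside 5.81%. The 5 windows printed above held none of these motifs. A match is a description of letters and shows no binding.

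Target genes of the receptors were read from the same fit. None of the genes on the lists of receptor targets, cofactors, chaperones and ligand enzymes passed over all probes. Of 31 measured targets of PPAR-alpha, 10 had higher and 21 lower means with tea. Their median log2 fold change was -0.20, and from -0.29 (without control replicate 1) to -0.087 (without control replicate 3) with an array left out. At an unadjusted p under 0.05 there were 5 lower (2.26% of all probes) and 0 higher (1.97% of all probes). Plin2, a lipid droplet coat protein, read 9.49, 9.46 and 8.57 in the tea arrays and 10.43, 10.58 and 10.56 in the control arrays, with no overlap. The fatty acid hydroxylases Cyp4a2 and Cyp4a3 differed by -1.20 ± 0.34 and -0.95 ± 0.31 (SE). The receptor gene Ppara did not share that direction with all arrays (0.20 ± 0.45), but did so without control replicate 1 (-0.29). Of 8 measured PPAR-gamma targets 3 were higher and 5 lower, with a median of -0.15 (-0.21 without control replicate 2 to -0.027 without control replicate 1). The 3 with the smallest p were Ucp2, a mitochondrial carrier (0.75 ± 0.36), Fabp4, a fatty acid binding protein (-0.27 ± 0.30), and Lpl, lipoprotein lipase (-0.28 ± 0.36). Without control replicate 1 they differed by 0.47, -0.46 and -0.0093.

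**Figure D5:**
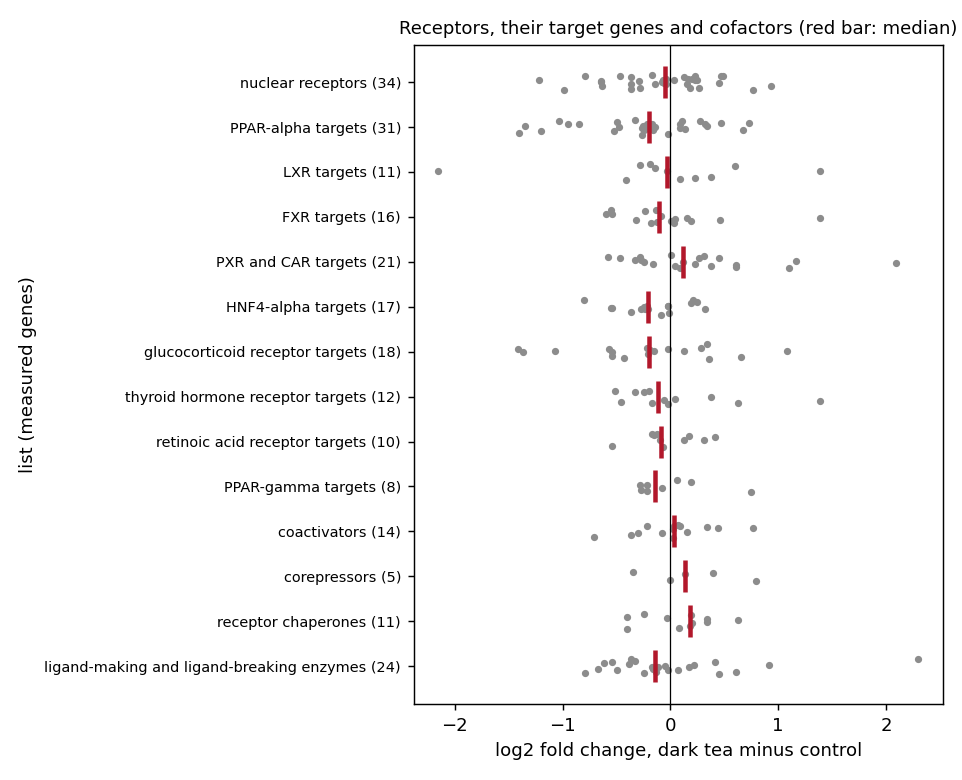
Log2 fold change, dark tea minus control (horizontal axis), of each measured gene (grey points, scattered vertically for sight) in the 34 receptors and in lists of their targets, cofactors, chaperones and ligand enzymes, with the median of each list as a red bar and the number of genes in brackets. Every median lies between -0.20 and 0.18.

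LXR targets were split, with 5 of 11 higher and 6 lower and a median of -0.027, which ran from -0.097 without tea replicate 1 to 0.21 without control replicate 3. Scd, a fatty acid desaturase, differed by -2.16 ± 0.83 (SE), and by -0.99 without control replicate 1, where it was highest. Abcg8, a subunit of the sterol exporter of bile, differed by 0.60 ± 0.38, and by 0.26 without control replicate 1. FXR targets had 7 of 16 higher and 9 lower, with a median of -0.11 (-0.23 without control replicate 1 to -0.031 without control replicate 3). Abcb11, the bile salt export pump, read 11.98, 12.14 and 11.36 in the tea arrays and 12.16, 12.53 and 12.57 in the control arrays. Its highest tea value lay just below the lowest control and tea replicate 3 lay further down, and the difference was -0.59 ± 0.32. Apoc2, an activator of lipoprotein lipase, differed by -0.55 ± 0.29, also without overlap. Cyp7a1, the first enzyme of bile acid synthesis and a gene on the LXR, FXR and thyroid lists, differed by 1.38 ± 0.51 with overlapping groups.

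Targets of PXR and CAR had 14 of 21 higher and 7 lower, with a median of 0.12 that ran from -0.054 without control replicate 1 to 0.37 without control replicate 3. Por, the electron donor of the P450 enzymes, read 9.55, 9.90 and 9.56 with tea, against 5.72, 8.47 and 8.52 with water. The groups did not overlap, and control replicate 1 was far below the rest. Gadd45b, a stress gene known in mouse to bind CAR, and Ugt2b1, a glucuronosyltransferase, differed by 1.10 ± 0.42 and 1.17 ± 0.46. Of HNF4-alpha targets, 4 of 17 were higher and 13 lower. At an unadjusted p under 0.05 there were 0, beside 4.23% of all probes. The groups did not overlap for 2, both lower with tea, beside 10.4% of all probes. The median of the 17 was -0.20, and -0.22 (without control replicate 2) to -0.084 (without control replicate 3) with an array left out. The 3 with the smallest p were Pklr, the liver pyruvate kinase (-0.80 ± 0.38, and -0.41 without control replicate 1), Apoc2, and Cyp8b1, the sterol hydroxylase that makes cholic acid (-0.54 ± 0.37, and -0.81 without that array).

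Glucocorticoid receptor targets had 6 of 18 higher and 12 lower. Their median of -0.20 was -0.43 without tea replicate 1, -0.29 without control replicate 1, -0.28 without control replicate 2, 0.00061 without tea replicate 3 and 0.079 without control replicate 3. Got1, an aminotransferase, read 10.42, 11.03 and 10.96 in the tea arrays and 9.34, 9.87 and 9.95 in the control arrays, all tea values above all controls. G6pc1, which releases glucose from liver, differed by -1.42 ± 0.42 and Ppp1r3c, a glycogen-targeting subunit, by -1.37 ± 0.43. Thyroid hormone receptor targets had 4 of 12 higher and 8 lower, with a median of -0.11 (-0.16 without tea replicate 2 to -0.053 without control replicate 2), and Acaca, acetyl-CoA carboxylase, differed by -0.52 ± 0.33. Retinoic acid receptor targets had 4 of 10 higher and 6 lower. Their median of -0.085 turned to 0.13 without control replicate 1, and was also above 0 without tea replicate 1 (0.034), tea replicate 3 (0.035) or control replicate 3 (0.0047). Among these, Dhrs3, a retinal reductase, differed by -0.54 ± 0.35 and Cyp26a1, which breaks down retinoic acid, by 0.41 ± 0.30.

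Cofactors were measured in part. Of 26 coactivators 14 were measured, 9 higher and 5 lower, with a median of 0.03 that turned to -0.13 without control replicate 1. Besides Ppargc1a, the smallest p belonged to Tada3 (-0.71 ± 0.40, and -0.45 without that array) and Psmc5 (0.44 ± 0.29). Of 20 corepressors 5 were measured, 3 higher and 2 lower. Ctbp2, a corepressor, differed by 0.79 ± 0.29 (SE; limma, unadjusted p = 0.0222) without overlap, but with control values of 4.43, 4.76 and 4.59, below the random control probe. Ctbp1 and Hdac1 differed by 0.40 ± 0.36 and -0.34 ± 0.32, and Ctbp1 by 0.71 without control replicate 1. Of the heat shock chaperones that hold steroid receptors ready, 7 of 11 were higher and 4 lower, with a median of 0.18 that ran from -0.093 without control replicate 1 to 0.29 without control replicate 2. Hsp90ab1 read 15.60, 15.29 and 15.31 with tea, against 13.33, 15.49 and 15.49 with water, a difference of 0.63 ± 0.53 with all arrays and of -0.093 without control replicate 1. Stip1 and Ppid differed by -0.40 ± 0.30 and -0.41 ± 0.37.

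Enzymes that make or break receptor ligands had 8 of 24 higher and 16 lower, with a median of -0.14 (-0.23 without control replicate 1 to -0.056 without tea replicate 3). Hsd17b2, which oxidises oestradiol and testosterone, read 10.17, 10.78 and 10.95 in the tea arrays, against 7.26, 8.82 and 8.93 in the control arrays. The tea values all lay above the controls, and the difference of 2.30 ± 0.46 (SE; limma, unadjusted p = 0.000464, adjusted p = 0.949) was 1.76 without control replicate 1. Hsd11b1, which regenerates active glucocorticoid in liver, differed by -0.79 ± 0.37 and Akr1d1, a steroid reductase of bile acid synthesis, by -0.67 ± 0.36, with overlap in both.

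Of the 8 receptors of the family that had been left outside the 40, 4 were measured. The Rev-erb genes Nr1d1 and Nr1d2, repressors within the clock, differed by 0.58 ± 0.42 and 1.30 ± 0.47, and Nr1d2 was without overlap between the groups (0.73 without control replicate 1). Esrrb differed by -0.18 ± 0.29 and lay below the random control probe in every array. On the list of 14 measured clock genes, 8 were higher and 6 lower, led by Dbp, Per3 and Bhlhe41 with 4.28 ± 0.39, 1.22 ± 0.31 and 1.14 ± 0.30.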

How the data were processed

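Rat liver RNA was measured on 1-colour (Cy3) NimbleGen arrays, as the labels' protocols state, with 6 arrays in all. The deposited value table holds 1 linear intensity per probe and array; per the submitters' processing notes the authors used RMA, with version and settings not given in the sources used here. That method makes arrays alike in distribution, so differences in total signal are no longer visible. From the deposited intensity, log2 was taken with no further scaling, and the fit held 26419 probes, without the 1 random control. Probes were named by transcript identifier, without versions, through RefSeq's table of GRCr8, used for names. Of the probes, 9747 had 1 symbol and 16672 had none here. For a gene with several probes the one with the highest mean was taken.

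Tea and control, 3 arrays each, grouped by sample titles, were compared with limma 3.58.1 in R 4.3.3 (lmFit, eBayes, two-sided), adjusted by Benjamini-Hochberg over all 26419 probes at a threshold of 0.05. Fold changes are tea minus control on the log2 scale. The fit was tested on simulated data. The receptors and lists were chosen with earlier results of these data known. Values per array were given for receptors with an unadjusted p under 0.05, with groups that do not overlap, for the 6 brightest and for 9 fixed receptors of liver metabolism, and from each pathway list the 3 genes with the smallest p were named, except a few that are not reported here; other genes given with values were chosen after their values were seen. Promoter windows come from RefSeq. Alternatives were quantile normalization, median centring, a filter on dim probes, trend and robust eBayes, array weights, a replicate block, the mean of a gene's probes, other thresholds and leaving out each array. The labels give no batch. Replicate numbers were not treated as pairs in the main fit. Deviations from group means correlated at -0.22, 0.013 and -0.25 for numbers 1, 2 and 3. These values cannot show whether the numbers pair the arrays, since the deviations within a group depend on each other.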

Additional observations from a re-analysis of the deposited data

How the results depend on the processing

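No receptor passed the adjusted threshold under any alternative, an adjusted p under 0.1 included; with array weights the smallest adjusted p among them was 0.176, for Ppard. By the looser call of an unadjusted p under 0.05 with a 1.5-fold change, 3 did, beside 4.23% of all probes. The receptors at an unadjusted p under 0.05 numbered 5 with array weights (12.7% of all probes), 3 with the replicate block (2.98%) and 1 to 5 with an array left out (2.22% to 5.93%), the lowest without tea replicate 2 and the highest without control replicate 2. The receptors without overlap numbered 6 to 10 with an array left out, when 16.9% to 21.8% of all probes did not overlap. These 2 counts were added after seeing the data. Over all probes, 27 passed with array weights, 0 with the replicate block and 0 to 6 with an array left out, 0 without tea replicate 1, 2 or 3 or control replicate 3 and 6 without control replicate 1. The median of the receptors stayed between -0.13 and 0.059.

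Of 431 single receptor values under alternatives, 396 kept their direction, but many of these could not turn. Trend and robust eBayes, the replicate block and the filter on dim probes leave the fold change itself as it was. The mean of a gene's probes does so too for every receptor with a single probe. Of the 34 receptors, 17 changed direction when some array was left out. With an array left out the log2 fold change ran from -0.29 to 0.57 for Ppara, -0.69 to 0.075 for Pparg, -0.50 to 0.57 for Nr1h2, -0.46 to 0.31 for Nr1i3, -0.016 to 0.36 for Nr0b2, -0.075 to 0.0068 for Nr5a2, -0.48 to 0.57 for Hnf4a, -0.15 to 0.56 for Rxrb, -0.30 to 0.052 for Rxrg, -0.26 to 0.053 for Pgr, -0.0098 to 0.45 for Nr3c1, -0.044 to 0.29 for Nr3c2, -0.11 to 0.13 for Nr4a2, -0.30 to 0.18 for Nr4a3, -0.10 to 0.36 for Nr2f2, -0.27 to 0.24 for Nr2c1 and -0.85 to 0.054 for Esrrg. Array weights turned Nr1h2 to 0.24, Hnf4a to -0.48, Pgr to 0.00078, Nr3c1 to -0.047, Nr4a2 to -0.015, Nr4a3 to 0.095 and Nr2c1 to 0.12, and the mean of its probes turned Thra to 0.12. The cause of these turns was not tested. Probes near the random control, such as Vdr, Nr0b1, Nr4a3 and Pgr, are limited by signal over background.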
